A study of Homo sapiens with 16 samples.

Results

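FAM3B, ANXA6, RAB34, IL16 and PTP4A3 are 5 protein-coding genes whose RNA was higher in NCI-H929 myeloma cells given a p300 degrader than in cells given DMSO. They were selected on that contrast, out of 57500 genes counted, 19737 of which are protein coding and 12415 of which are protein coding and passed the filter on low counts. All 5 passed that filter. RNA was sequenced in bulk in 16 libraries of NCI-H929, a human cell line labelled as myeloma, with 4 libraries in each of 4 groups: cells that received 3 nM of a p300 degrader (compound 27) over 6 h, cells given the solvent DMSO, p300 KO cells and NTC cells. The labels spell out neither NTC nor how the knockout was made, give no clone, and do not say whether the replicates were separate cultures, so a p-value here speaks of the spread among libraries, which may be technical.

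p300, encoded by EP300, is an acetyltransferase that works with its close relative CBP, encoded by CREBBP, at enhancers and promoters. A degrader brings a protein to the ubiquitin system and acts on the protein, whereas a knockout changes the gene. The 5 genes belong to different families. FAM3B and IL16 encode secreted signalling proteins: FAM3B is a cytokine-like protein known from pancreatic islets, and the IL16 precursor is cut to release a cytokine that binds CD4. ANXA6 and RAB34 work on membranes: annexin A6 binds phospholipids when calcium is present, and RAB34 is a small GTPase that positions lysosomes through its effector RILP and takes part in forming cilia. PTP4A3, also called PRL-3, is a membrane-anchored phosphatase that binds the CNNM magnesium transport proteins and has been studied in myeloma and in metastatic cancer.

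Libraries held 12.59 M to 23.12 M counts. Degrader 2 and p300 KO 1 stood apart, with 64.9% and 47.7% of their counts on mitochondrial genes, against 5.99% to 6.96% in the other 3 degrader libraries, 13.4% to 23.5% in DMSO, 10.2% to 11.4% in the other 3 p300 KO libraries and 8.91% to 10.3% in NTC. For the chosen genes, log2 fold changes in comparisons that hold these libraries are therefore also given without them. Many results of other genes and lists are given with all libraries only, and some of those calls changed without these libraries. EP300 had 41.2, 34.9, 31.2 and 34.1 CPM (counts scaled to library size) in p300 KO, against 92.7, 85.4, 83.9 and 87.7 CPM in NTC, a log2 fold change of -1.25 ± 0.11 (SE; edgeR quasi-likelihood test, adjusted p = 2.2e-04) that was -1.37 without p300 KO 1. CREBBP, measured in the same fit, rose by 0.32 ± 0.06 in p300 KO (adjusted p = 0.0085, edgeR). It was also called without p300 KO 1 (0.31, adjusted p = 9.39e-06, edgeR) and with DESeq2 (0.33, adjusted p = 5.13e-06). The call was lost in edgeR with total count scaling (0.15, adjusted p = 0.701), in the fit of all 16 libraries (0.27, adjusted p = 0.326) and with no filter on low counts (0.29, adjusted p = 0.117). CPM of genes are TMM-scaled over all 16 libraries here and below, and log2 fold changes come from edgeR fits of the 8 libraries of each comparison.

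The cell type lists were read as CPM without TMM scaling. These sums are shares of all counts, mitochondrial ones included, and the ranges include degrader 2 and p300 KO 1, which were not set apart. The 10 plasma cell markers summed to 3456 to 16698 CPM in degrader, 10887 to 13708 CPM in DMSO, 7269 to 13318 CPM in p300 KO and 12849 to 13205 CPM in NTC, and none was at 0 in a whole group. In p300 KO against NTC, 5 of these 10 were called lower and 0 higher (adjusted p under 0.05, edgeR), beside 10.7% and 6.23% of all genes. Without p300 KO 1, 6 were lower and 1 higher, beside 21.8% and 19.1% of all genes. In degrader against DMSO, 1 of 9 tested was called lower and 0 higher, beside 3.12% and 1.64% of all genes. Lists of other cell types were far lower, and some also moved with the groups. The 6 T cell markers summed to 5.88 to 28.9 CPM in degrader, against 38.2 to 45.1 CPM in DMSO, with CD3D at 0 in every degrader and DMSO library. They summed to 21.6 to 39.3 CPM in p300 KO, against 47.4 to 53.4 CPM in NTC. Only 2 of the 6 passed the filter on low counts in each of these comparisons. The 5 monocyte markers summed to 0.397 to 0.9 CPM in degrader, against 1.15 to 1.46 CPM in DMSO. Only 1 of them passed the filter on low counts in that comparison. The same markers summed to 4.53 to 5.13 CPM in p300 KO, against 7.57 to 11.7 CPM in NTC. The 6 earlier B cell markers summed to 16.9 to 20.3 CPM in p300 KO, against 27.3 to 31.9 CPM in NTC. The part of these lists in the values of the 5 genes was not tested.

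In GRCh38, FAM3B (ENSG00000183844) covers chr21:41304212-41357431 on the plus strand, ANXA6 (ENSG00000197043) chr5:151100712-151157882 on the minus strand, RAB34 (ENSG00000109113) chr17:28714281-28718429 on the minus strand and IL16 (ENSG00000172349) chr15:81159575-81314058 on the plus strand. RAB34 is the most compact at 4.15 kb, and IL16 spans 154 kb, the longest of the 5. RefSeq promoter windows (GRCh38.p14, 250 bases before to 50 after an annotated start) matched 3 of the 5: ANXA6, RAB34 and IL16.

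Short motifs of common promoter factors were searched on both strands, as letters only. They were the CRE (TGACGTCA, in 1.85% of 35116 windows of the same length), the AP-1 site (TGANTCA, 7.71%), the E-box CACGTG (7.26%), the GC box (GGGCGG, 45.0%), the TATA box (TATAAA, 11.5%), an EGR1 site (GCGGGGGCG, 5.07%), an ETS core (CCGGAAG, 10.3%) and an IRF site (GAAANNGAA, 8.11%). No 2 of these share their full letters, although an EGR1 site can overlap a GC box. The stretches below, 30 bases each and read 5′ to 3′ on the strand of the gene, are shown because they carry the matches nearest to the annotated starts, with the match in capitals.
ANXA6, E-box, chr5:151157812-151157841 (-): gcctctgcgcgcCACGTGtccggctcggag
ANXA6, GC box on the other strand, chr5:151157774-151157803 (-): tgtcctcccggtCCGCCCcgcgctgcggtt
RAB34, AP-1 site, chr17:28718249-28718278 (-): gggcagactctaTGAGTCAcctcccaggcc
IL16, GC box, chr15:81199399-81199428 (+): cgttgggtggaaGGGCGGagcccatcagga

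The ANXA6 E-box begins 50 bases before the annotated start at 151157779, in a window with 25 CpG against a median of 14 over all windows. The RAB34 AP-1 match begins 99 bases before 1 annotated start and 2 bases after another, and the window of the remaining RAB34 start holds GC boxes at 161, 78, 44 and 37 bases before it. IL16 has a GC box 65 bases before its start at 81199476, in a window with 5 CpG. The second windows of ANXA6 and IL16 hold none of the motifs. The 3 genes thus had no motif in common other than the GC box, which many promoters hold. These are matches of letters, not binding sites.

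Both secreted factors were higher in degrader than in DMSO cells. FAM3B had 25.7, 10.9, 24.2 and 27.3 CPM in degrader libraries 1 to 4, against 6.61, 6.06, 4.31 and 7.1 CPM in DMSO libraries 1 to 4. Every degrader library lay above every DMSO library, although degrader 2 had less than its 3 mates. The log2 fold change was 1.90 ± 0.27 (SE), or 3.72-fold, and 2.08 ± 0.13 without degrader 2. IL16 had 35.6, 44.5, 36.2 and 33.5 CPM in degrader libraries, against 12.2, 13.7, 12.6 and 12.5 CPM in DMSO libraries. Here degrader 2 was the highest library, and the log2 fold change was 1.56 ± 0.13, or 2.96-fold, and 1.45 ± 0.09 without it. In bulk RNA, more cells of a type and more RNA per cell cannot be told apart.

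The membrane genes differed from DMSO by similar folds. ANXA6 had 29.8, 18.5, 29.9 and 26.7 CPM in degrader libraries, against 7.39, 10.3, 5.51 and 8.78 CPM in DMSO libraries, a log2 fold change of 1.73 ± 0.21 (3.32-fold), and of 1.83 ± 0.15 without degrader 2. RAB34 had 18.9, 6.3, 18.2 and 17.3 CPM in degrader libraries, against 4.62, 5.71, 3.59 and 5.47 CPM in DMSO libraries. Degrader 2 lay just above the highest DMSO library for RAB34, on 34 counts, so the separation of the groups rested on a narrow gap there. Its log2 fold change was 1.68 ± 0.31 (3.2-fold), and 1.89 ± 0.14 without degrader 2.

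With all libraries, the phosphatase had the smallest fold of the 5, while without degrader 2 that of IL16 was slightly smaller. PTP4A3 (ENSG00000184489, chr8:141391993-141432454, plus strand) had 24.6, 13.5, 23.3 and 23.6 CPM in degrader libraries, against 8.17, 8.97, 7.19 and 9.86 CPM in DMSO libraries. All degrader libraries lay above DMSO, with degrader 2 again the lowest of its group. The log2 fold change was 1.34 ± 0.19 (2.52-fold), and 1.47 ± 0.11 without degrader 2. These values describe the contrast that chose the genes and carry no test.

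Among all 15872 genes tested in degrader against DMSO, 260 (1.64%) were called higher and 495 (3.12%) lower at an adjusted p under 0.05, and 1113 (7.01%) had every degrader library above every DMSO library, as the 5 genes did by the way they were chosen. With total count scaling in place of TMM, 19 genes were higher and 145 lower. Without degrader 2, 2970 of 16297 genes (18.2%) were higher and 3308 (20.3%) lower. In the order of log2 fold change among the 160 coding genes that were called higher, averaged 3 or more in log2 CPM and had groups apart, FAM3B was second, after the immediate early gene EGR1 (2.46). ANXA6 and RAB34 were the next, followed by the taste receptor subunit TAS1R3 (1.63), IL16, the cancer-testis antigen CTAG2 (1.41) and PTP4A3 (1.34). Below PTP4A3 stood the actin-binding protein CTTN (1.31).

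**Figure D1:**
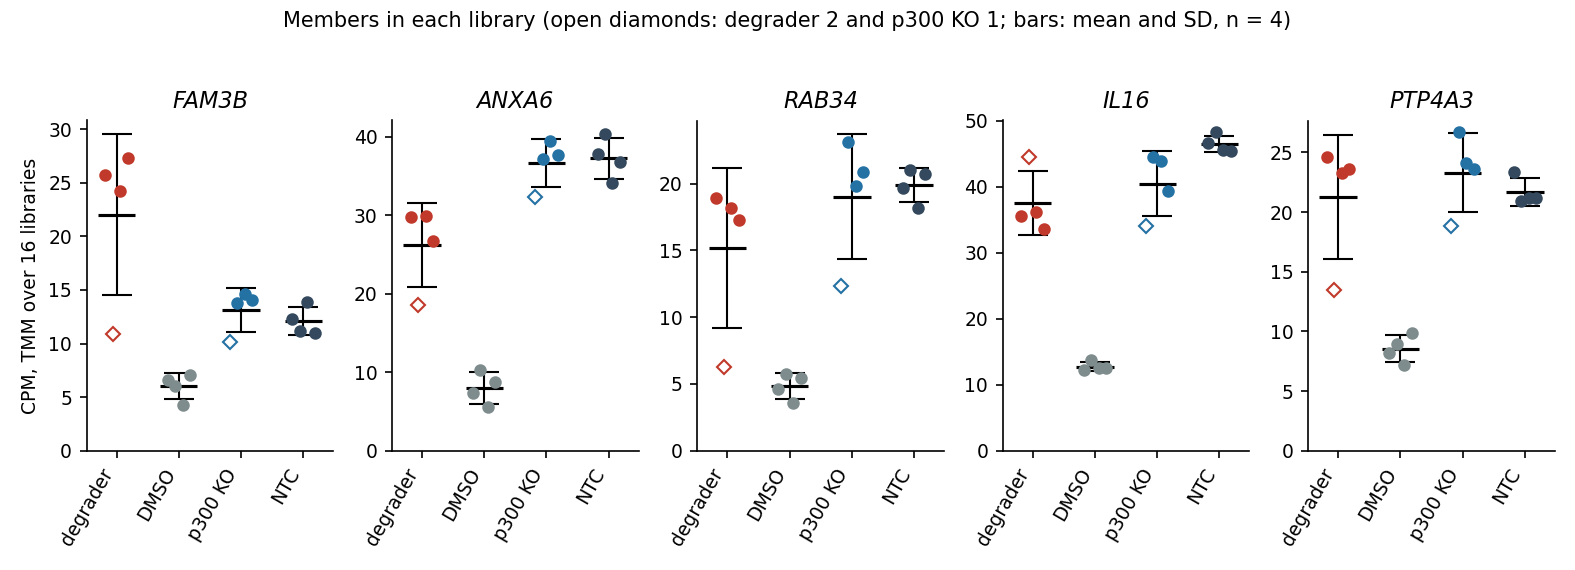
Level of each gene in every library, in CPM with TMM over 16 libraries, with groups on the horizontal axis, the mean and SD of 4 libraries as black bars and degrader 2 and p300 KO 1 as open diamonds. DMSO is the lowest group for all 5 genes, and degrader 2 lies below its mates for all but IL16.

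The DMSO libraries were the low group of the series for all 5 genes. NTC cells, which received no degrader according to their labels, had more RNA of each than DMSO cells. ANXA6 had 37.8, 40.3, 34.1 and 36.7 CPM in NTC, which was above every degrader library as well as every DMSO library. RAB34 had 19.7, 21.0, 18.2 and 20.7 CPM in NTC, overlapping the 3 degrader libraries other than degrader 2. IL16 had 46.6, 48.2, 45.6 and 45.4 CPM in NTC, again above every degrader and DMSO library.

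PTP4A3 had 23.4, 20.9, 21.2 and 21.2 CPM in NTC, close to the degrader libraries other than degrader 2 and above DMSO. FAM3B in NTC libraries, with 12.3, 11.2, 13.9 and 11.0 CPM, lay above DMSO and below the 3 degrader libraries other than degrader 2. The log2 fold change of NTC against DMSO was 1.00 ± 0.13 for FAM3B (2.0-fold), 2.20 ± 0.13 for ANXA6 (4.6-fold), 2.02 ± 0.12 for RAB34 (4.06-fold), 1.86 ± 0.08 for IL16 (3.63-fold) and 1.33 ± 0.10 for PTP4A3 (2.52-fold). Both comparisons use the same DMSO libraries, so their values stand side by side and are not independent.

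For all 5 genes every NTC library lay above every DMSO library. This was common: 5649 of 17248 genes (32.8%) did so, and 11877 were called between these controls, 6093 higher and 5784 lower, or 8189 higher and 3753 lower with total count scaling. All 16 libraries carry the same batch label, and whether the DMSO and NTC cells were grown and extracted together is not stated. The controls belong to separate experiments, so experiment, treatment and mitochondrial share differ at once and cannot be told apart. Within DMSO, library 3 had the highest mitochondrial share and the lowest CPM of FAM3B, ANXA6, RAB34 and PTP4A3, but not of IL16. The part of the mitochondrial share in these values was not tested.

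**Figure D2:**
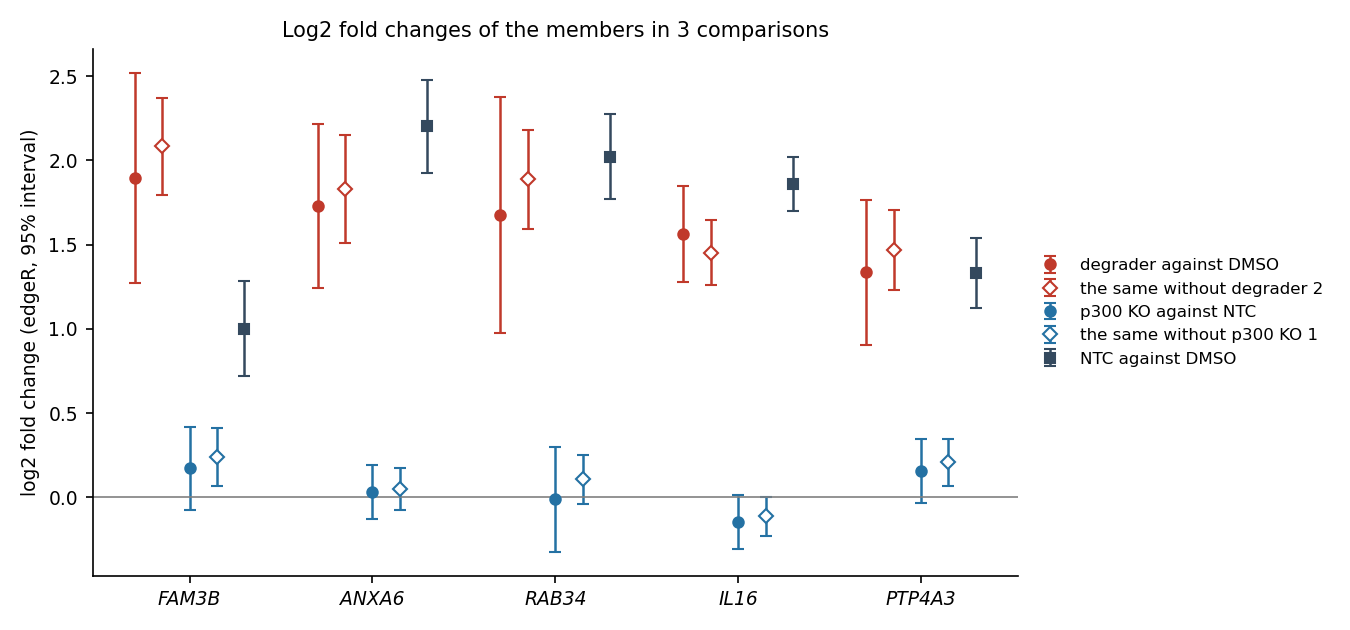
Log2 fold change of each gene (vertical axis, edgeR) with its 95% interval, in degrader against DMSO, p300 KO against NTC and NTC against DMSO, with open diamonds where degrader 2 or p300 KO 1 was left out. Degrader against DMSO and NTC against DMSO lie at 1.00 or more for all 5 genes, while p300 KO against NTC lies between -0.15 and 0.24.

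The knockout libraries did not enter the choice of the genes. In p300 KO against NTC, 1081 of 17350 genes (6.23%) were called higher and 1863 (10.7%) lower, or 61 higher and 1204 lower with total count scaling. None of the 5 was among them, and at an unadjusted p under 0.05 none would have been either. DESeq2, the other tool run, gave 3962 calls in all.

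FAM3B had 10.1, 13.8, 14.6 and 14.1 CPM in p300 KO, around its NTC values, with a log2 fold change of 0.17 ± 0.11 (95% interval -0.07 to 0.42, adjusted p = 0.289, edgeR). PTP4A3 had 18.8, 26.7, 24.1 and 23.6 CPM in p300 KO and a log2 fold change of 0.16 ± 0.08 (-0.03 to 0.35, adjusted p = 0.218, edgeR). For both genes p300 KO 1 was the lowest library and the other 3 were at the top of the NTC range or above it. Without p300 KO 1, FAM3B was called higher in p300 KO at 0.24 ± 0.09 (adjusted p = 0.0219, edgeR) and PTP4A3 at 0.21 ± 0.07 (adjusted p = 0.0126, edgeR). In that fit 3385 of 17706 genes (19.1%) were called higher and 3861 (21.8%) lower, so 2 of 5 is to be read against a large share.

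ANXA6 had 32.3, 37.2, 39.4 and 37.7 CPM in p300 KO and a log2 fold change of 0.03 ± 0.07 (-0.13 to 0.19, adjusted p = 0.778, edgeR). RAB34 had 12.3, 23.1, 19.8 and 20.9 CPM, with p300 KO 1 alone below the NTC libraries, and a log2 fold change of -0.01 ± 0.14 (-0.32 to 0.30, adjusted p = 0.961, edgeR). IL16 was the only member with no overlap between these groups: its 34.0, 44.5, 43.9 and 39.4 CPM in p300 KO were all below the lowest NTC library, at a log2 fold change of -0.15 ± 0.07 (-0.31 to 0.01, adjusted p = 0.177, edgeR). Such a separation was seen in 3212 of the 17350 genes (18.5%). Without p300 KO 1 the value was -0.11 for IL16, 0.05 for ANXA6 and 0.11 for RAB34 (adjusted p = 0.119, 0.55 and 0.238, edgeR).

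The upper ends of the knockout intervals were at most 1.34-fold, for FAM3B, with all 4 libraries of each group. The lower ends were no less than 0.8-fold, for RAB34. The degrader folds of the same genes, 2.52-fold to 3.72-fold, lie outside these intervals. The difference between the comparisons was not tested, because the degrader values chose the genes.

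**Figure D3:**
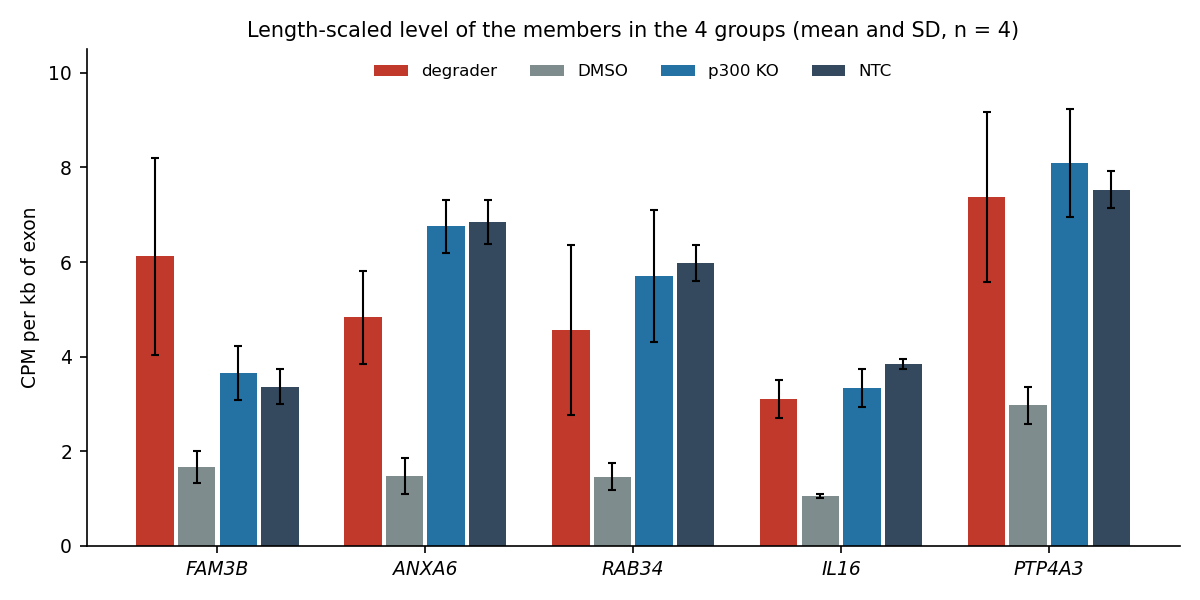
Level of each gene per kilobase of exon in CPM per kb (vertical axis), as the mean of 4 libraries with the SD, in degrader, DMSO, p300 KO and NTC. PTP4A3 has the tallest bar in each group, and DMSO is the shortest bar of each gene.

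Divided by exon length, PTP4A3 was the most abundant of the 5 in every group, at 7.38 ± 1.8 CPM per kb in degrader, 2.97 ± 0.396 CPM per kb in DMSO, 8.1 ± 1.14 CPM per kb in p300 KO and 7.53 ± 0.395 CPM per kb in NTC (SD, n = 4 each). FAM3B held the next place with degrader, at 6.12 ± 2.09 CPM per kb, and in DMSO, at 1.67 ± 0.337 CPM per kb. In NTC it had the lowest mean, at 3.36 ± 0.374 CPM per kb, next to IL16 at 3.84 ± 0.107 CPM per kb, and their libraries overlapped, with FAM3B reaching 3.87 and IL16 starting at 3.75 CPM per kb. ANXA6 and RAB34 did not differ beyond their spread in degrader or DMSO, at 4.83 ± 0.983 and 4.56 ± 1.79 CPM per kb in degrader and 1.47 ± 0.379 and 1.46 ± 0.288 CPM per kb in DMSO, and without degrader 2 their order in degrader turned, to 5.3 and 5.45 CPM per kb. In NTC ANXA6 was above RAB34, at 6.85 ± 0.471 and 5.98 ± 0.376 CPM per kb, with libraries that overlapped only at 6.28 to 6.31 CPM per kb. IL16 was the lowest in degrader (3.1 ± 0.399 CPM per kb) and DMSO (1.05 ± 0.0517 CPM per kb). The lengths are of all annotated exons, so a gene with many isoforms, such as IL16 at 12.1 kb, reads low on this scale.

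Over the 16 libraries the log2 CPM of ANXA6, RAB34, IL16 and PTP4A3 ran closely together, with Pearson correlations of 0.87 to 0.98, while FAM3B correlated with them at 0.69 to 0.85. The 16 points share 4 groups and a low DMSO group, so these are descriptions. Among 9207 genes compared, the patterns most like FAM3B were those of TDP2 (0.96), CTAG2 (0.94) and BCR (0.93). ANXA6 was closest to DMWD, ETV5 and SCAMP2 (0.96 to 0.97), and RAB34 to ALDOC, RNF19B and PTP4A3 itself (0.98 each). IL16 was closest to TM7SF2 (0.97) and GALNT17 (0.96), and PTP4A3 to RAB34 (0.98) and NECAP2 (0.97). Without degrader 2 and p300 KO 1 the closest genes were IGSF8 for FAM3B, QSOX1 for ANXA6, ANXA6 for RAB34, LY6E for IL16 and CAPZA2 for PTP4A3, at 0.96 to 0.99 over 14 libraries.

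Relatives of the 5 genes were called at shares near those over all genes. Of 138 genes in 8 lists of family members and partners, 85 were tested in degrader against DMSO, 1 was called higher and 2 lower, beside 1.64% and 3.12% of all genes, with a median log2 fold change of 0.06, against 0.05 over all genes tested. Without degrader 2, 17 of 86 were higher and 15 lower, beside 18.2% and 20.3% of all genes. In p300 KO against NTC, 5 of 92 were higher and 14 lower, beside 6.23% and 10.7% of all genes, with a median of -0.03, against 0.02 over all genes. Without p300 KO 1, 20 of 94 were higher and 21 lower, beside 19.1% and 21.8% of all genes. The counts of single lists below are to be read against the same shares.

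For the secreted factors, neither of the tested FAM3 relatives was called in either comparison with all libraries, and FAM3C was called lower in p300 KO without p300 KO 1, at -0.17 (adjusted p = 0.00585, edgeR). FAM3A had a log2 fold change of -0.12 ± 0.20 and FAM3C of 0.00 ± 0.24 in degrader against DMSO. Among 39 other interleukin genes, 7 were tested with the degrader, and 2 fell. IL10, an anti-inflammatory cytokine, averaged 0.984 ± 0.294 CPM in degrader and 5.62 ± 1.58 CPM in DMSO (SD, n = 4 each) and fell by 2.52 ± 0.31 on the log2 scale (edgeR, adjusted p = 0.00357). IL32, an inflammatory cytokine, averaged 516 ± 79.0 CPM in degrader and 922 ± 124 CPM in DMSO and fell by 0.82 on the log2 scale (adjusted p = 0.0292). In p300 KO, 2 of 10 tested interleukin genes fell: IL24 at -0.67 ± 0.12 (adjusted p = 0.00654) and IL23A, a subunit of interleukin 23, at -1.12 ± 0.24 (adjusted p = 0.0143). Of the IL16 receptor and processing genes, CD4 was not tested, with 32 counts over all 16 libraries, and CD9 (-0.81 ± 0.31) was not called with the degrader.

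Among the membrane genes, none of 7 tested annexins was called with the degrader, with values from -0.62 for ANXA1 to 0.18 for ANXA4. Without degrader 2, ANXA1 was called lower at -0.66 (adjusted p = 0.00453, edgeR). In p300 KO 3 annexins fell: ANXA1 averaged 7.49 ± 0.738 CPM in p300 KO and 13.2 ± 0.949 CPM in NTC (log2 fold change -0.77, adjusted p = 0.00226, edgeR), ANXA2 fell by 0.45 (adjusted p = 0.0112) and ANXA11 by 0.29 (adjusted p = 0.0159). Of 46 tested RAB GTPases, RAB5B, which acts on early endosomes, was the single call with the degrader, at 0.50 ± 0.11 (adjusted p = 0.0363, edgeR). Without degrader 2, 14 of the 46 were higher and 8 lower, beside 18.2% and 20.3% of all genes. In p300 KO 4 of 50 RAB genes were higher and 8 lower, beside 6.23% and 10.7% of all genes. RAB5B was among those higher, at 0.33 ± 0.08 (adjusted p = 0.0266, edgeR). RAB43 averaged 6.56 ± 1.15 CPM in p300 KO and 19.7 ± 1.17 CPM in NTC (log2 fold change -1.53, adjusted p = 3.91e-05, edgeR), and RAB36, which like RAB34 binds RILP, fell by 0.58 (adjusted p = 9.73e-04). RAB30, a Golgi GTPase, fell by 0.47, and RAB27A, which docks secretory vesicles, by 0.32. Of the 11 partners of RAB34 in placing lysosomes, none was called with the degrader, while without degrader 2 RAB7A was called higher (0.28) and FNIP1 (-0.38) and FNIP2 (-0.65) lower. FLCN, the folliculin gene, rose by 0.43 ± 0.09 in p300 KO (adjusted p = 0.0113, edgeR).

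For the phosphatase, none of its 5 tested relatives and CNNM partners was called with the degrader: PTP4A1 had a log2 fold change of -0.21 ± 0.13 and PTP4A2 of 0.22 ± 0.15. In p300 KO, PTP4A1 fell by 0.34 ± 0.07 (adjusted p = 0.0104, edgeR), and the other 4 were not called. None of the 6 magnesium channels and carriers was called in either comparison with all libraries. Without degrader 2, SLC41A1 was called higher (0.41) and TRPM6 (-0.83) and TRPM7 (-0.41) lower. Without p300 KO 1, 4 of the 6 were called higher, beside 19.1% of all genes.

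**Figure D4:**
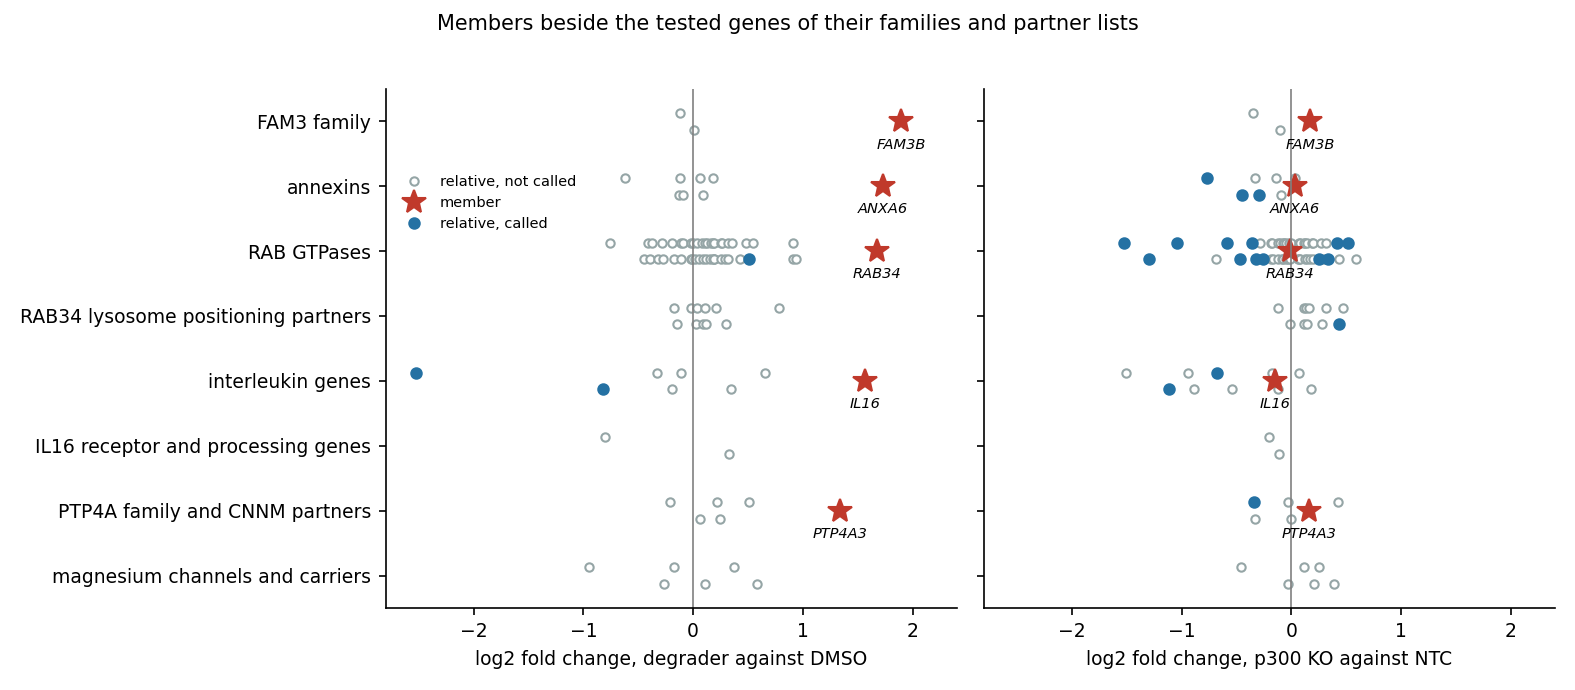
Log2 fold change (horizontal axis) of each tested relative, by list, in degrader against DMSO on the left and p300 KO against NTC on the right, with filled circles for genes called and stars for the 5 genes chosen. With the degrader the stars, which were selected for their size, lie at 1.34 or more, and in p300 KO they lie near 0.

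Of the genes next to the 5 on their chromosomes, TLNRD1 was the single call with the degrader, where 1.64% of all genes were called higher. Without degrader 2, where 18.2% were, TLNRD1, MX2, TNIP1, CCDC69 and RPL23A were called higher. TLNRD1, 154 kb from IL16, was higher at 0.85 ± 0.19 (adjusted p = 0.0411, edgeR) and fell by 0.72 in p300 KO (adjusted p = 6.13e-04). MX2, an interferon-induced gene 4.51 kb beyond the end of FAM3B on the same strand, averaged 2.95 ± 1.03 CPM in degrader and 0.997 ± 0.468 CPM in DMSO. Its log2 fold change of 1.53 ± 0.39 was not called (adjusted p = 0.0636, edgeR), but was called without degrader 2 at 1.29 (adjusted p = 0.00449). BACE2 on the other side of FAM3B had 0.48 ± 0.31 and was not called in either fit.

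Beside ANXA6, TNIP1 (0.38 ± 0.11) and CCDC69 (0.67 ± 0.25) were not called with the degrader, though both were without degrader 2, and CCDC69 rose in p300 KO by 0.40 (adjusted p = 0.0134, edgeR). RAB34 lies 0.964 kb from RPL23A and 2.43 kb from PROCA1, whose log2 fold changes with the degrader were 0.26 ± 0.34 and 0.33 ± 0.38, not called; without degrader 2, RPL23A was called higher at 0.52 (adjusted p = 0.0028, edgeR). PTP4A3 lies 83.7 kb from SLC45A4 (-0.32 ± 0.22) and 780 kb from TSNARE1 (-0.12 ± 0.29), also not called, and ENSG00000244998, an antisense gene inside it, shares no exon base with it. On the far side of IL16, TMC3-AS1 had 0.08 ± 0.20. IL16 shares 4351 exon bases with STARD5 on the opposite strand and 142 with ENSG00000271725, and the use of strand in counting is not known from the labels, so reads from the shared bases cannot be placed. STARD5 averaged 3.38 ± 1.26 CPM in degrader and 3.03 ± 0.781 CPM in DMSO, below IL16 in every group, with a log2 fold change of 0.20 ± 0.29 that was not called.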

How the data were processed

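The 5 genes, lists and motifs were chosen with earlier results of these data known. Tables deposited by the authors hold integer counts per gene; featureCounts of Subread 1.5.2, STAR 2.5.2b and Trimmomatic 0.36, with GRCh38, are named per the submitters' processing notes, and strand use is not given in the sources used here. A gene name list gave symbols for 40907 of 57500 identifiers, and gene types came from GENCODE 29. Each comparison was fitted on its 8 libraries in edgeR 4.0.16 (R 4.3.3): filterByExpr, TMM, quasi-likelihood test, Benjamini-Hochberg over all genes tested, called under an adjusted p of 0.05. The SE is the log2 fold change divided by the root of F. The fit was tested on simulated data. DESeq2 1.42.0 was an alternative. Totals were 12.59 M to 23.12 M counts, and a count of 0 allows up to 3 counts, or 0.13 to 0.238 CPM without TMM scaling, for counting error only. With TMM scaling this limit is higher in degrader 2, which had a factor of 0.43. Correlations used log2(CPM + 0.5). Named genes were the 5, EP300, CREBBP, up to 4 called genes per list and comparison, adjacent or overlapping genes, the 3 most similar genes, and the ranked genes, some of which are not reported here; FAM3A, FAM3C, ANXA4, RAB7A, FNIP1, FNIP2, SLC41A1, TRPM6, TRPM7, CD4, CD9, PTP4A2 and the closest genes over 14 libraries were named after their values were seen.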

Additional observations from a re-analysis of the deposited data

Results flagged for a closer look

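Over 20 groups of 4 libraries (5 genes in 4 groups), 3 had a library whose gap to the nearest, as a share of the group's range, was above the limit of Dixon's test, where chance gives about 1 group in 20. They were RAB34 in degrader, where degrader 2 had 6.3 CPM, PTP4A3 in degrader, where degrader 2 had 13.5 CPM, and PTP4A3 in NTC, where NTC 1 had 23.4 CPM. The 5 genes were read in the same libraries, so the 20 groups are not independent and the count of 3 is a description. For IL16, every degrader library lay above every DMSO library and every p300 KO library lay below every NTC library, at a log2 fold change of -0.15 in p300 KO against NTC that was not called (adjusted p = 0.177, edgeR). The degrader contrast chose the gene, and 18.5% of all genes had every p300 KO library below every NTC library. The difference between the experiments was not tested.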

How the results depend on the processing

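All 70 values of the 5 genes in degrader against DMSO and all 65 in NTC against DMSO stayed above 0 over 14 and 13 alternative settings. In degrader against DMSO, IL16 moved to 1.38 with total count scaling. In NTC against DMSO, total count scaling moved FAM3B to 1.25, RAB34 to 2.27, IL16 to 2.11 and PTP4A3 to 1.58; it shifted the median of all genes to 0.27, against 0.02 with TMM, to -0.09, against 0.05, in degrader against DMSO and to -0.14, against 0.02, in p300 KO against NTC. In p300 KO against NTC, ANXA6 reversed to -0.0194 with all 16 libraries, to -0.0041 with no filter on low counts and to -0.13 with total count scaling. Leaving out each library gave -0.0076 to 0.0725 for ANXA6 and -0.11 to 0.11 for RAB34, and 0.13 to 0.25 for FAM3B and 0.10 to 0.21 for PTP4A3, both called only without p300 KO 1. Adjusted p of FAM3B ran from 0.0219 to 0.965 and of PTP4A3 from 0.0126 to 0.991 over the settings. Genes called in degrader against DMSO numbered 755, against 1796 with DESeq2, 2294 with all 16 libraries, 394 with no filter on low counts, 164 with total count scaling and 197 to 6278 when leaving out each library, the most without degrader 2. In p300 KO against NTC they numbered 2944, against 1484 with all 16 libraries, 1265 with total count scaling and 1542 to 7246 when leaving out each library, the most without p300 KO 1. With the replicate number as a replicate block, 24 genes were called in degrader against DMSO and 1304 in p300 KO against NTC; same-numbered libraries correlated at -0.448 to 0.139 and -0.187 to 0.037, and none correlated best with its own number, so the numbers were not taken as pairs. The cause of these changes was not tested. Counts of 34 to 100 for 4 of the genes in degrader 2 limit its precision.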

Other observations

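Degrader 2 differed from its 3 mates by -1.45 (log2 CPM) for RAB34, which spans 4.15 kb, by -1.20 for FAM3B, by -0.62 for ANXA6, by -0.79 for PTP4A3 and by 0.34 for IL16, which spans 154 kb. Over all genes tested, the median of this difference was 0.00 for 4783 genes under 10 kb, -0.17 for 6186 genes of 10 to 50 kb, 0.03 for 2366 genes of 50 to 100 kb and 0.26 for 2537 genes over 100 kb. In p300 KO 1 the difference from its 3 mates was -0.76 for RAB34, -0.47 for FAM3B, -0.23 for ANXA6, -0.39 for PTP4A3 and -0.32 for IL16, with medians of -0.04, -0.17, -0.13 and -0.07 in the same classes of span. RAB34 was thus the lowest of the 5 in both libraries, relative to their mates.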
